A study of Homo sapiens with 4 samples.

Results

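The enzymes that build asparagine, serine and proline, together with the folate enzymes that pass on the carbon unit of serine, were followed through 4 cultures of Nalm-6, a human pre-B leukemia cell line. The set was fixed by name and held 10 genes: ASNS, PHGDH, PSAT1, PSPH, SHMT1, SHMT2, MTHFD2, MTHFD1L, ALDH18A1 and PYCR1. All probes whose transcript annotation led to one of these symbols were taken, which gave 18 of the 41000 probes on the array and 10 of the 18199 genes that could be named. The cultures were wild-type cells (WT), cells with both alleles of the gene for actin-related protein 5 disrupted (Arp5 KO, established as a cell line), cells with the gene for actin-related protein 8 disrupted (Arp8 KO), and cells given as Arp8 overexpression (Arp8 OE), for which the sources used here do not describe a construct. Arp5 and Arp8 belong to the INO80 complex, an ATP-driven chromatin remodeler. The study reported that Arp5 KO cells grew slightly slower than WT, and that conditional loss of Arp8 had been lethal to cells in earlier work. The part of growth or cell death in the results below was not tested. The protocol added heme at 20 uM for 12 hours to induce oxidative stress. The sample annotations did not settle which cultures received it: heme stood in every title, whereas a separate treatment field gave no heme for both knockouts and the source description gave heme for Arp8 KO but not for Arp5 KO. Genotype and treatment can therefore not be told apart in any comparison that holds a knockout, the comparison of the knockouts with each other included. There was 1 array per culture, so no difference below had a biological replicate, and none was tested.

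These enzymes feed protein and nucleotide synthesis. PHGDH, PSAT1 and PSPH turn a glycolytic intermediate into serine in successive steps, SHMT1 in the cytosol and SHMT2 in mitochondria split serine into glycine and a folate-bound carbon unit, and MTHFD2 and MTHFD1L carry that unit through mitochondrial folate to formate. ASNS makes asparagine from aspartate, and ALDH18A1 and PYCR1 make proline from glutamate. Several of these genes are classical targets of ATF4, a factor whose translation rises when eIF2alpha is phosphorylated; among the kinases that do this is EIF2AK1, which heme inhibits. Leukemic lymphoblasts are known for their dependence on external asparagine, the basis of asparaginase therapy.

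The known ATF4 element of the ASNS promoter has the core TGATGNAA, so the sequences before the starts of the genes were searched for it on both strands, over the 250 bases ahead of each start in RefSeq (build GRCh38.p14). Starts were listed for 7 of the 10 genes (not PSPH, SHMT2 or PYCR1), in 11 windows. The core was found in 1 of 2 windows of ASNS, 61 to 68 bases before the start, and in 2 of 4 windows of MTHFD1L, at the same genomic site in both. It occurred in 3.14% of all 35116 windows. The ASNS window that holds the core is given below, with the core in capitals. The windows of PHGDH, PSAT1 and MTHFD2, which lack the core, are given too. They were picked because the signals of these genes in both knockouts also lay below Arp8 OE. For MTHFD1L, which has the core and whose probes showed other orders, 30 bases are given. A link between the core and the signals was not tested.
ASNS, chr7:97872409-97872658, minus strand: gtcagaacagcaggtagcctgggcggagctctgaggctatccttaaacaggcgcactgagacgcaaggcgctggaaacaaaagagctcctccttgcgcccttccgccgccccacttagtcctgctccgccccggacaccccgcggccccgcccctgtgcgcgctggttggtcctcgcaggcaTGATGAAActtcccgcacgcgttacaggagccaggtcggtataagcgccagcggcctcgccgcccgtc
PHGDH, chr1:119711684-119711933, plus strand: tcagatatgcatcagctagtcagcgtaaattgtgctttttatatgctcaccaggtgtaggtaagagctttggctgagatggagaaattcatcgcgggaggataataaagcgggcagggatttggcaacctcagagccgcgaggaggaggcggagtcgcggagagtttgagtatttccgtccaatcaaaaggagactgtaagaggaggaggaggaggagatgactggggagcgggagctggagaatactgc
PSAT1, chr9:78296875-78297124, plus strand: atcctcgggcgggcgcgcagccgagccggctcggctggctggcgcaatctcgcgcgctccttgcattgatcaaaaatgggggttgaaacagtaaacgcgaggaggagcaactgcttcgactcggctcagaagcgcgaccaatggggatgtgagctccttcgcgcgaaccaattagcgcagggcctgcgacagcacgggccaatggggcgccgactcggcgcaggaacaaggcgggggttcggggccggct
MTHFD2, chr2:74198365-74198614, plus strand: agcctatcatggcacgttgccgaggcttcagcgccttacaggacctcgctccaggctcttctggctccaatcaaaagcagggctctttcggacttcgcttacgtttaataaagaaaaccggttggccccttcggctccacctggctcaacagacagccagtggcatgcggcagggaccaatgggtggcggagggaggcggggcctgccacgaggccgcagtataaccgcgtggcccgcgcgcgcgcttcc
MTHFD1L, chr6:150866346-150866375, plus strand: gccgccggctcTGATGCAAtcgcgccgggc
The E-box CACGTG, which reads the same on both strands, was present for MTHFD1L and ALDH18A1 and in 6.34% of all windows. The antioxidant element core TGACNNNGC was in none of the 11 windows and in 10.91% of all. In the MTHFD1L windows the core and the E-box did not overlap. These matches are descriptions of the letters and not of bound sites.

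Signals are given as log2 of the processed signal over the array's 75th percentile, with a level of 0 for the 75th percentile itself. All 18 member probes were well above background and unsaturated on every array, so no member value below is a bound. Some values of other genes are bounds. Each had 1 spot per array. Probes printed 10 times gave a technical SD of 0.08 for a log2 difference between 2 arrays, and 2 such SDs, 0.17 or 1.12-fold, served as the limit below which cultures were not ordered. This SD covers spots of 1 array and leaves out culture, labeling and hybridization. All 4 arrays were on 1 slide with 1 scan time. The targeted ACTR5 was lower in Arp5 KO than in WT by a log2 difference of -4.27, ACTR8 was lower in Arp8 KO by -0.53 and -0.68 on its 2 probes, and in the culture labelled Arp8 OE, whose name is used only as a name, ACTR8 differed from WT by 0.02 and -0.01. HMOX1, the heme-induced gene of the study, was lower than in WT by -2.98 (Arp5 KO), -2.91 (Arp8 KO) and -2.05 (Arp8 OE). All 16 probes of 11 B-precursor markers were well above background on all arrays, with a summed signal of 318.5 (Arp8 KO) to 402.3 (Arp8 OE) times the 75th percentile. Single markers differed more than this sum: against WT, CD22 was 5.99-fold and VPREB1 2.39-fold lower and DNTT 3.43-fold higher in Arp8 KO, and DNTT was 2.03-fold and RAG1, on 1 of 2 probes, 2.15-fold higher in Arp8 OE. Of 9 probes for T, myeloid and NK markers, 3 each were so in WT and Arp8 OE, 4 in Arp5 KO and 5 in Arp8 KO. Their summed signal was 0.693, 0.934, 0.902 and 2.92 times the 75th percentile in that order. CD3D and MPO were well above background on no array, and CD14 on every array. KLRD1 was so in Arp5 KO alone, at least 2.06-fold higher than in WT. LYZ and a CD3E probe were so in Arp8 KO alone, LYZ at least 1.85-fold higher than in WT. CD33 was so on every array, and 5.25-fold and 5.16-fold higher in Arp8 KO than in WT. The part of these markers in the results below was not tested. The arrays read bulk RNA, in which fewer cells of a type and less RNA per cell cannot be told apart.

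Few member values passed a 2-fold threshold, and few probes on the whole array did. No member probe passed 2-fold against WT in any culture. The shares of all tested probes past that threshold were 1.69% (higher) and 2.01% (lower) for Arp5 KO, 3.37% and 4.35% for Arp8 KO and 2.96% and 2.15% for Arp8 OE, so that with 18 probes a count of 0 lay near the background. Of the 108 values that 18 probes gave in 6 comparisons, 1 passed 2-fold: PHGDH was 2.40-fold lower in Arp8 KO than in Arp8 OE, where 3.78% of all probes tested were past 2-fold lower. The widest range over the 4 arrays was that of PHGDH (2.40-fold), the narrowest that of a dim PSPH probe (1.12-fold), and the median range was 1.44-fold, against 1.34-fold over all 21783 probes well above background on every array.

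A 1.5-fold threshold, chosen after the data were seen, separated more of the values. The range over the 4 arrays was past it for 7 of 18 member probes, against 29.6% of all probes well above background on every array. Arp5 KO had 0 of 18 probes past it against WT in either direction, where 4.15% of all probes were higher and 4.69% lower. In Arp8 KO, 4 probes were past 1.5-fold lower, 1 for PHGDH, 1 for SHMT2 and 2 for MTHFD1L, and 0 were higher, against 11.2% and 10.0% of all probes. In Arp8 OE, ASNS was past 1.5-fold higher and the same 2 MTHFD1L probes were lower, against 7.93% and 5.67%. With normexp background correction MTHFD1L A_23_P214907 was no longer past 1.5-fold in Arp8 KO (-0.54) or Arp8 OE (-0.49), nor was ASNS in Arp8 OE (0.55); ASNS was also short of it with median scaling (0.56) and cyclic loess (0.57). Differences past 2 technical SDs were common in the set and on the whole array alike. They numbered 4 higher and 7 lower of 18 in Arp5 KO, where 23.9% of all probes were higher and 23.9% lower. In Arp8 KO they numbered 3 higher and 10 lower (35.3% and 32.0% of all probes), and in Arp8 OE 5 higher and 8 lower (31.2% and 30.6%).

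The median of the 18 probes against WT was -0.07 (Arp5 KO), -0.22 (Arp8 KO) and -0.03 (Arp8 OE), beside 0.00, 0.03 and 0.00 over all probes tested. The median in Arp8 OE rested on how genes were weighted, since MTHFD1L had 4 of the 18 probes: over the 10 gene means it was 0.11.

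**Figure D1:**
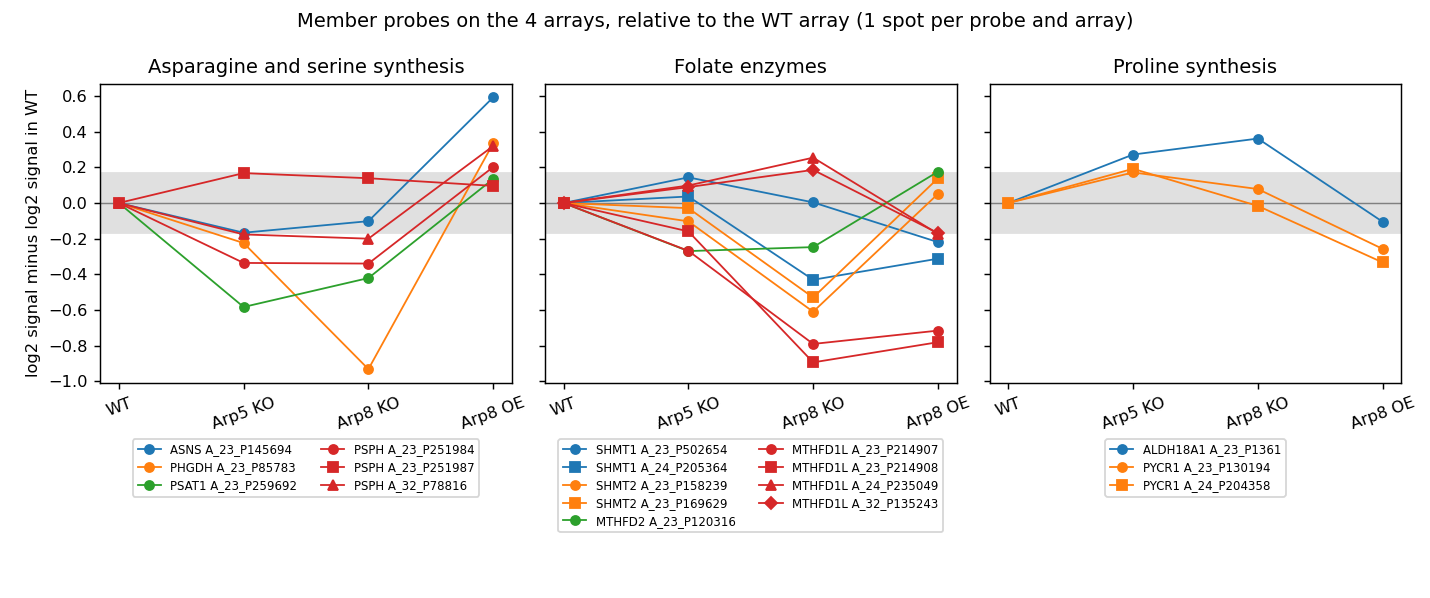
Log2 signal of each of the 18 member probes minus its value on the WT array (vertical axis) on the 4 arrays (horizontal axis), in panels by pathway; lines only join the values of a probe, and the grey band marks 2 technical SDs (0.17) on either side of WT. PHGDH is lowest in Arp8 KO (-0.93), ASNS highest in Arp8 OE (0.59), and the MTHFD1L probes part into a lower pair and an upper pair.

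Asparagine synthetase was highest in Arp8 OE and nearly level on the other arrays. The single ASNS probe had log2 levels of 3.96 in WT, 4.55 in Arp8 OE, 3.80 in Arp5 KO and 3.86 in Arp8 KO. Arp8 OE stood apart, while WT, Arp8 KO and Arp5 KO followed each other at steps below 0.17. ASNS was 1.51-fold higher in Arp8 OE than in WT, and 7.72% of all probes tested were as high or higher in that comparison. Arp5 KO was 1.69-fold and Arp8 KO 1.62-fold below Arp8 OE. The differences of the knockouts from WT were -0.17, at the edge of 2 technical SDs, and -0.10, within them.

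In the serine pathway both knockouts lay below WT and Arp8 OE on 4 of 5 probes, by different amounts for each enzyme; the fifth, a dim PSPH probe, had both knockouts slightly above. PHGDH, which catalyzes the entry step, had levels of 4.57 in WT, 4.91 in Arp8 OE, 4.35 in Arp5 KO and 3.64 in Arp8 KO. All 4 cultures were separated by more than 2 technical SDs, in the order Arp8 OE, WT, Arp5 KO and Arp8 KO. Against WT it was 1.91-fold lower in Arp8 KO (log2 difference -0.93), where 5.08% of all probes were as low or lower, and 1.17-fold lower in Arp5 KO. Between the knockouts it was 1.63-fold lower in Arp8 KO.

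PSAT1, the aminotransferase of the pathway, had levels of 3.12 in WT, 3.25 in Arp8 OE, 2.54 in Arp5 KO and 2.70 in Arp8 KO. Both knockouts lay below WT and Arp8 OE, and within each of these pairs the cultures were not separated. It was the member lowest in Arp5 KO, at a log2 difference of -0.58 from WT, where 4.73% of all probes were as low or lower. In Arp8 KO the difference was -0.42.

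PSPH, the phosphatase that releases serine, had 3 probes. A_23_P251984 had levels of 2.73 in WT, 2.94 in Arp8 OE, 2.40 in Arp5 KO and 2.40 in Arp8 KO. A_32_P78816 had levels of 1.17, 1.49, 0.996 and 0.97 in the same order. On both, Arp8 OE was highest, WT followed and the knockouts, not separated from each other, were lowest. The dimmer A_23_P251987 had levels of -1.04, -0.95, -0.87 and -0.90, and no neighbouring cultures in its order were separated. RefSeq lists a pseudogene named after PSPH, 4 after PSAT1, 5 after ASNS, 7 after MTHFD2 and 1 after SHMT1; how far their transcripts reach these probes was not tested.

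The mitochondrial folate enzymes did not share a common order. SHMT2, the mitochondrial serine hydroxymethyltransferase, was lower in Arp8 KO alone. Its probe A_23_P169629 had levels of 5.19 in WT, 5.33 in Arp8 OE, 5.16 in Arp5 KO and 4.66 in Arp8 KO. The second, A_23_P158239, had 3.93, 3.98, 3.83 and 3.32. On both probes Arp8 KO lay below the other cultures, which were not separated in their order. Against WT the log2 differences in Arp8 KO were -0.53 and -0.61, and 13.0% and 10.6% of all probes were as low or lower. Against Arp5 KO they were -0.50 and -0.51.

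MTHFD2, the mitochondrial dehydrogenase and cyclohydrolase, had levels of 3.80 in WT, 3.98 in Arp8 OE, 3.53 in Arp5 KO and 3.55 in Arp8 KO. The order was that of PSPH: Arp8 OE above WT and WT above both knockouts, which were not separated. The steps were small, with log2 differences from WT of -0.27 (Arp5 KO), -0.25 (Arp8 KO) and 0.18 (Arp8 OE).

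MTHFD1L, which releases formate from mitochondrial folate, gave 2 answers on 4 probes. A_23_P214907 had levels of -1.14 in WT, -1.86 in Arp8 OE, -1.41 in Arp5 KO and -1.93 in Arp8 KO. The second, A_23_P214908, had -0.32, -1.10, -0.48 and -1.22. On this pair Arp8 KO and Arp8 OE were low together, 1.73-fold and 1.86-fold below WT in Arp8 KO and 1.64-fold and 1.72-fold below it in Arp8 OE. The brighter A_24_P235049 had levels of 0.63, 0.45, 0.72 and 0.88, and A_32_P135243 had 0.47, 0.30, 0.56 and 0.65, in the same order of cultures. On that pair Arp8 OE was lowest, and Arp8 KO lay above WT by 0.25 and 0.19, past 2 technical SDs, with Arp5 KO between them and separated from neither. In Arp8 KO the MTHFD1L probes thus lay on opposite sides of WT, at -0.79 and -0.89 on the lower pair. The A_23_P214908 probe is annotated to another RefSeq transcript than the other 3, and A_23_P214907 shares its annotation with the upper pair. Where the probes lie in the transcript was not analysed here.

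SHMT1, the cytosolic counterpart of SHMT2, was lowest in Arp8 OE on a first probe and in Arp8 OE and Arp8 KO, not separated, on a second. Its probe A_23_P502654 had levels of -0.69 in WT, -0.91 in Arp8 OE, -0.55 in Arp5 KO and -0.69 in Arp8 KO. Its probe A_24_P205364 had -0.59, -0.90, -0.55 and -1.02. The probes thus gave the same direction in Arp8 OE (-0.22 and -0.31 against WT) and differed in Arp8 KO (0.00 and -0.43).

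The proline enzymes were at or below WT in Arp8 OE, where ASNS, PHGDH and PSPH were above it on 4 of 5 probes. PSAT1, at 0.13 in Arp8 OE, was not separated from WT. ALDH18A1, which makes pyrroline-5-carboxylate from glutamate, had levels of 2.17 in WT, 2.06 in Arp8 OE, 2.44 in Arp5 KO and 2.53 in Arp8 KO. Both knockouts lay above WT and Arp8 OE, and within each of these pairs the cultures were not separated. Against WT it was 1.21-fold higher in Arp5 KO and 1.28-fold higher in Arp8 KO, where 13.8% and 19.7% of all probes were as high or higher. Of the 6 spots beside its spot, 2 were over 2-fold brighter on the WT array than on the others; whether this touched the ALDH18A1 value was not tested. A further 3 member probes, 1 of them for MTHFD1L and 2 for PSPH, had 1 such neighbour, bright on the Arp8 OE or Arp8 KO array.

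PYCR1, the mitochondrial reductase of the last step, had levels of 4.70 in WT, 4.44 in Arp8 OE, 4.87 in Arp5 KO and 4.77 in Arp8 KO on A_23_P130194. On A_24_P204358 the levels were 0.46, 0.12, 0.65 and 0.44. Arp8 OE was lowest on both probes, by log2 differences from WT of -0.26 and -0.33, while Arp5 KO lay 0.17 and 0.19 above WT and stood apart from all other cultures on A_24_P204358 alone. Against Arp8 OE, all 3 proline probes were higher in both knockouts, by 0.38 to 0.52 in Arp5 KO and by 0.32 to 0.47 in Arp8 KO.

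**Figure D2:**
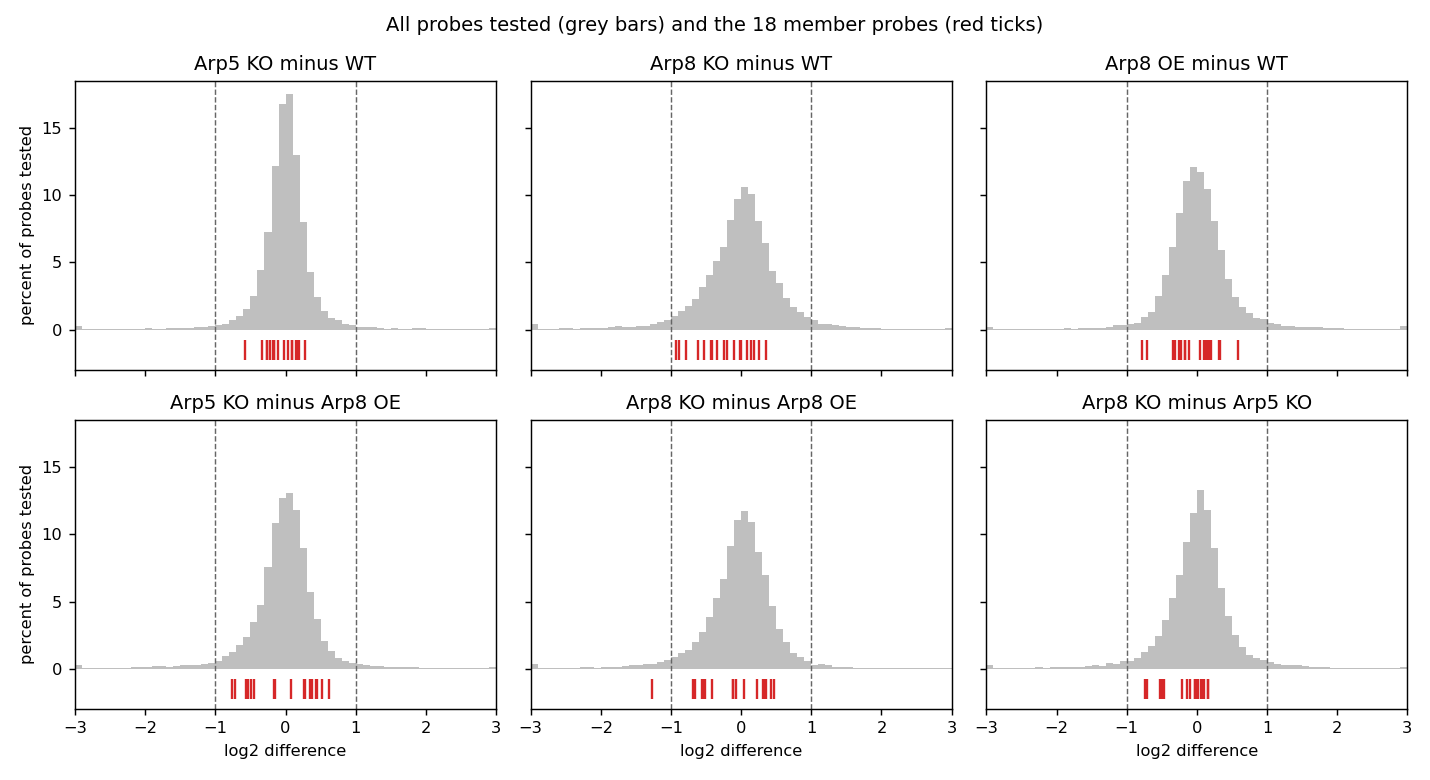
Distribution of the log2 difference over all probes tested (grey bars, percent of probes per 0.1 on the horizontal axis; values beyond 3 stand in the outermost bars) with the 18 member probes as red ticks, for the 6 pairs of arrays; dashed lines mark 2-fold. PHGDH in Arp8 KO minus Arp8 OE (-1.26) is the only tick past a dashed line.

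Between Arp8 OE and the knockouts most member probes differed by more than 2 technical SDs, with members on both sides. In Arp5 KO minus Arp8 OE, 0 probes passed 2-fold (2.08% of all probes were past it higher and 3.28% lower) and 3 passed 1.5-fold, 1 higher and 2 lower (5.37% and 8.07%). There, 9 probes were past 2 technical SDs higher and 7 lower of 18, where 29.3% of all probes were higher and 29.3% lower. The lowest was ASNS (-0.76), followed by PSAT1 (-0.72), and the highest was a probe of the lower MTHFD1L pair (0.62). In Arp8 KO minus Arp8 OE, 6 were higher and 8 lower (32.9% and 30.5% of all probes), from PHGDH at -1.26 to ALDH18A1 at 0.47. Past 1.5-fold lower there were 4 probes, those of PHGDH, ASNS and SHMT2, against 9.44% of all, and 0 were higher, against 6.59%. Both comparisons share the Arp8 OE array. Their medians, 0.16 and -0.12, depended on how genes were weighted: over the 10 gene means the former turned to -0.24 and the latter was -0.38.

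A direct comparison of Arp8 KO with Arp5 KO had 0 members past 2-fold, where 2.53% of all probes were higher and 3.18% lower, and 2 past 1.5-fold lower and 0 higher, where the shares of all probes were 7.84% and 6.9%. An annotation that gives heme to Arp8 KO and not to Arp5 KO leaves treatment and genotype confounded here too. Of the 18 probes, 7 were past 2 technical SDs lower and 0 higher, where 28.8% of all probes were lower and 31.8% higher. The 7 were 1 probe of PHGDH (-0.71), 2 of SHMT2 (-0.50 and -0.51), 2 of the lower MTHFD1L pair (-0.52 and -0.73), 1 of SHMT1 (-0.47) and 1 of PYCR1 (-0.21). ASNS, PSAT1, PSPH, MTHFD2 and ALDH18A1 lay between -0.03 and 0.16.

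Enzymes of the same or neighbouring reactions that were not in the set were read beside their counterparts. PYCR3, the cytosolic paralog of PYCR1, differed from WT on its 2 probes by values that lay between 0.10 and 0.18 in the knockouts and at -0.16 and -0.17 in Arp8 OE. MTHFD1, the cytosolic folate enzyme related to MTHFD1L, differed from WT by 0.32 (Arp5 KO), 0.14 (Arp8 KO) and -0.17 (Arp8 OE). MTHFD2L, the paralog of MTHFD2, was well above background in Arp8 KO alone, and its bounds gave no fold past 2 technical SDs against WT. Differences between arrays are compared here, not the levels of different probes.

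**Figure D3:**
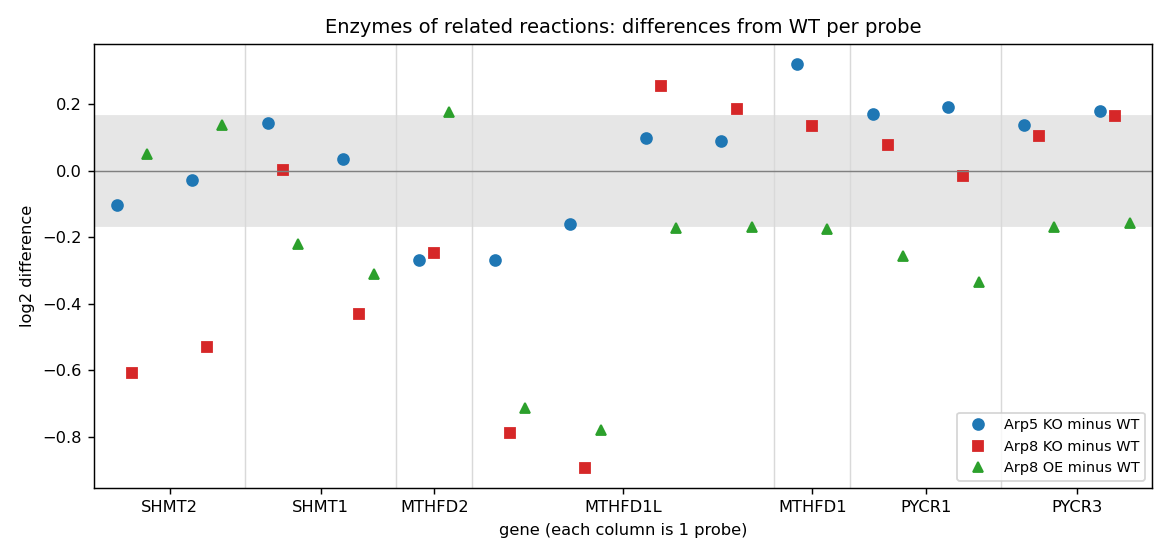
Log2 difference from WT (vertical axis) in Arp5 KO (circles), Arp8 KO (squares) and Arp8 OE (triangles) for each probe of member enzymes and their paralogs, 1 column per probe; the grey band marks 2 technical SDs. SHMT2 is lower in Arp8 KO on both probes (-0.53 and -0.61), PYCR1 and PYCR3 lie below 0 in Arp8 OE, and the MTHFD1L probes form 2 pairs.

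In the wider pathway the probes past 2-fold against WT were about as frequent as on the whole array. Of 40 further enzymes and carriers of serine, glycine, sulfur, folate, proline and aspartate metabolism, 63 probes were present and 12 of these were well above background on no array. In Arp5 KO, 0 of 50 tested probes passed 2-fold against WT (1.69% of all probes were higher and 2.01% lower). In Arp8 KO, 1 of 51 was higher and 2 were lower (3.37% and 4.35% of all), and in Arp8 OE 0 of 50 were higher and 2 lower (2.96% and 2.15%). GLDC, the glycine-cleaving decarboxylase, was 3.16-fold lower in Arp8 KO and 2.09-fold lower in Arp8 OE, with levels of -1.92 in WT, -2.98 in Arp8 OE, -1.58 in Arp5 KO and -3.57 in Arp8 KO. SFXN1, which carries serine into mitochondria, was 2.25-fold lower in Arp8 KO, with levels of 1.65, 1.20, 1.51 and 0.48 in the same order. SDSL, a relative of serine dehydratase, was 2.33-fold higher in Arp8 KO. ASPG, an asparaginase, was well above background in WT and not in Arp8 OE, where it was at least 2.02-fold lower; it is named because it completes the count. The median of the list against WT was -0.08 in Arp8 OE, 0.05 in Arp5 KO and 0.05 in Arp8 KO.

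Amino acid carriers were lower in the knockouts than in WT on nearly all probes. Of 17 probes for 9 carriers, Arp5 KO had 13 past 2 technical SDs lower and 1 higher, Arp8 KO had 14 and 1, and Arp8 OE had 2 lower and 6 higher. The shares of all probes tested were 23.9% lower and 23.9% higher, 32.0% and 35.3%, and 30.6% and 31.2%. Their medians were -0.24, -0.45 and 0.03 in that order. Past 2-fold there were 2 probes in each knockout, both of SLC7A11, the cystine carrier, at -2.06 on each in Arp5 KO and at -3.33 and a bound of -3.48 in Arp8 KO.

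Genes of the ATF4 axis were higher in Arp8 OE than in WT on most probes. Of 22 probes tested for factors, kinases and other targets, 14 were past 2 technical SDs higher and 1 lower in Arp8 OE (31.2% and 30.6% of all probes), with a median of 0.35. In Arp5 KO 0 were higher and 10 lower (23.9% and 23.9% of all), and in Arp8 KO 4 were higher and 9 lower (35.3% and 32.0%), with medians of -0.11 and -0.01. ATF4 itself differed from WT on its 2 probes by -0.04 and -0.12 (Arp5 KO), -0.13 and -0.25 (Arp8 KO) and 0.35 and 0.40 (Arp8 OE). Past 2-fold against WT were DDIT4, an inhibitor of mTORC1 signaling, 3.56-fold higher in Arp8 OE, ATF5, a related factor, 2.28-fold lower in Arp5 KO, and DDIT3, which encodes CHOP, 2.07-fold lower in Arp8 KO. The brighter EIF2AK1 probe had levels of 2.30 in WT and Arp5 KO and 2.26 in Arp8 KO and Arp8 OE, while a dim EIF2AK1 probe differed from WT by 0.16 (Arp5 KO), 0.32 (Arp8 KO) and 0.35 (Arp8 OE). MYC, another known activator of serine and proline synthesis genes, was higher in Arp5 KO by 0.86 with an SD of 0.04 between 10 spots and in Arp8 KO by 0.83 with an SD of 0.05, and by 0.28 with an SD of 0.02 in Arp8 OE.

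**Figure D4:**
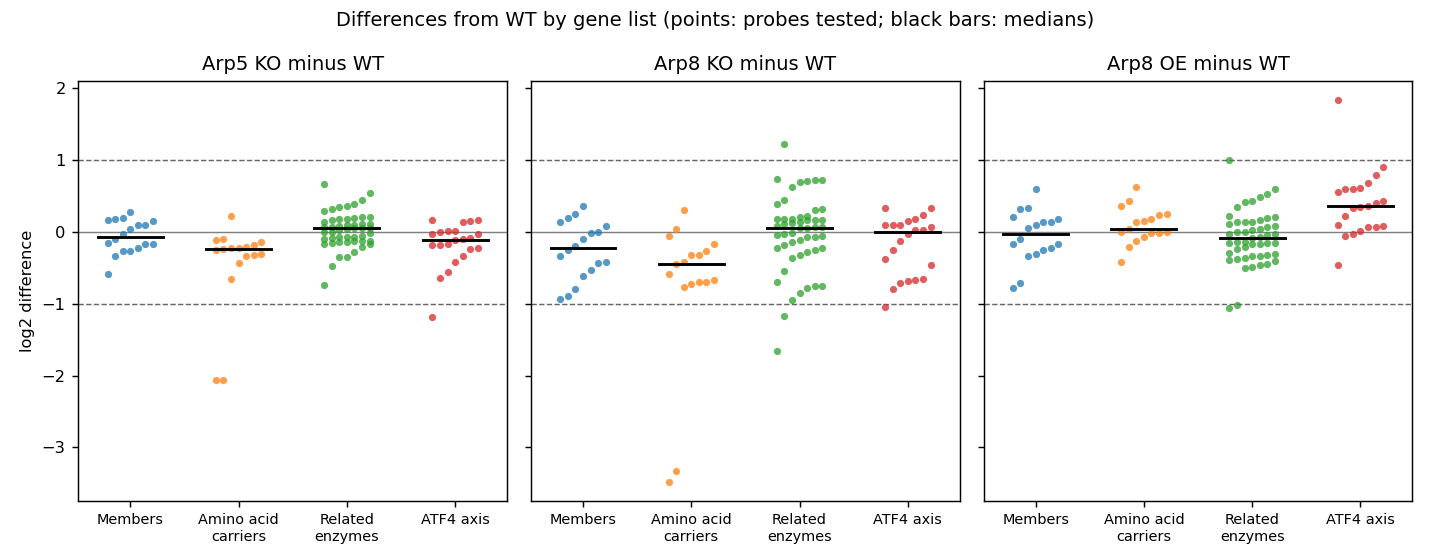
Log2 difference from WT (vertical axis) of each probe tested (points) in the member enzymes, amino acid carriers, related enzymes and ATF4 axis, for Arp5 KO, Arp8 KO and Arp8 OE; black bars are medians and dashed lines mark 2-fold. The carrier median is -0.45 in Arp8 KO and the ATF4 axis median 0.35 in Arp8 OE, and the member medians are -0.22 and -0.03 there.

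Likeness of pattern was the Euclidean distance between the 3 log2 differences from WT, over 11151 genes with a probe well above background on all 4 arrays. The nearest to PHGDH were RFX2 (distance 0.14), MPI (0.14), FCRLA (0.14), SPN (0.16) and LENG1 (0.17). The nearest to the median of the 18 members, which lay close to 0 in each difference, were POTEM, NDUFB8, SPRYD7, PLOD3 and TUBGCP3 (distances of 0.01 to 0.02), and 734 genes lay within 0.17 of it. Both distances rest on 3 differences that share the WT array.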

How the data were processed

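Total RNA of 4 Nalm-6 cultures was labeled with Cy3 and hybridized to 1-color Agilent arrays, 1 per genotype in the labels. Scanner output was deposited as linear intensity; the authors extracted it, per the file headers, in Agilent Feature Extraction 10.10.1.1 (background-subtracted and detrended within the array, not normalized between arrays); flags, control codes and spot positions came from the same software. The deposited series matrix equalled this intensity times 1 factor per array (1.99 to 2.29), so it is linear and uncentered (medians 120.4 to 126.5). All value columns had a sample.

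Each array's log2 processed signals were centered on the 75th percentile of its 43376 non-control spots. Outlier spots (69 to 76 per array) were left out and replicate spots averaged. A probe was tested in a comparison if at least 50% of its spots were well above background on 1 of the 2 arrays, and a dim value was raised to the lowest value well above background. Probes were named through RefSeq accessions (GRCh38.p14; 27204 of 41000). The headers name hg19, so no probe coordinates are given. With 1 array per group no test was run; precision is limited by the number of arrays. Of other lists, genes past 2-fold against WT and well above background on both arrays, and ATF4, EIF2AK1, MYC and SLC7A11, were named. A spot was adjacent within 20 pixels. Quantile, cyclic loess and normexp alternatives used limma 3.58.1. The steps were tested on simulated data, in which 200 probes were changed on 1 array by more than any member differed. That test did not reach differences as small as those of the members. Members and lists were chosen with earlier results of these data known. Of the lists, 2 genes are not reported here.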

Additional observations from a re-analysis of the deposited data

How the results depend on the processing

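In all, 1134 values were recomputed, of which 1065 moved by less than the technical SD or, for counts, by at most 1.5 times. Part of the 1065 could not have moved, as given below for the series matrix and both other filters. The same held for single values once probes beside a bright spot were left out. Only 1 member value was past 2-fold, and it kept its sign. Single values changed sign: 15 with gene means, 7 with normexp, 2 each with median scaling and quantile normalization and 1 with cyclic loess. With gene means, 2 of 6 medians changed sign too. With the mean over a gene's probes the member median was 0.11 in Arp8 OE minus WT, -0.24 in Arp5 KO minus Arp8 OE and -0.38 in Arp8 KO minus Arp8 OE. Leaving out the 4 probes beside a bright spot gave medians of -0.33 in Arp8 KO minus WT, 0.0522 in Arp5 KO minus Arp8 OE, -0.27 in Arp8 KO minus Arp8 OE and -0.17 in Arp8 KO minus Arp5 KO; the cause was not tested beyond the fewer probes. At 4-fold, 0 probes were lower in Arp8 KO minus Arp8 OE. At 1.5-fold, a threshold added after the data were seen, 4 were lower in Arp8 KO minus WT, 1 was higher and 2 lower in Arp8 OE minus WT, 1 higher and 2 lower in Arp5 KO minus Arp8 OE, 4 lower in Arp8 KO minus Arp8 OE and 2 lower in Arp8 KO minus Arp5 KO. Median scaling, quantile normalization and cyclic loess moved no member value past the technical SD. The series matrix and both other filters could not have done so. That matrix is the same signal times 1 factor per array, and all members were well above background on every array. Background correction by normexp, run on the median spot signal because the files used hold that column, moved 13 single values, among them ASNS in Arp8 KO minus WT to -0.21 and MTHFD1L (A_23_P214907) in Arp8 KO minus WT to -0.54 and in Arp8 OE minus WT to -0.49. Of the 16 values past 1.5-fold, 4 were lost with normexp, 7 with the mean over a gene's probes (all those of MTHFD1L and 1 of SHMT2) and 1 each with median scaling and cyclic loess, and 1 value passed it newly with each of median scaling, cyclic loess and quantile normalization. No paired analysis was possible because each group had 1 array. All member probes were well above background, but 13 single values depended on how background was corrected. The single array per culture limited every comparison.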
